A study of Mus musculus with 6 samples.

Results

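The zinc finger genes Zfp900 to Zfp999 are a stretch of numbered mouse symbols. They were chosen by name, as protein-coding genes of the count table whose symbol is Zfp and a 3-digit number that begins with 9. The rule took 61 of 27098 genes, running from Zfp930 to Zfp996, and used no expression value. Nearly all of them encode KRAB zinc finger proteins, a family in which a tandem array of C2H2 zinc fingers recognises DNA and an amino-terminal KRAB domain recruits the corepressor Trim28 (KAP1). Trim28 in turn brings the histone methyltransferase Setdb1 and heterochromatin proteins, and the family is known above all for silencing transposable elements. Many members lie in young, rapidly duplicating gene clusters, so that neighbours are often close copies of each other.

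RNA was sequenced from ovaries of newborn mice 3 days after birth, kept in DMEM/F12 with 1% antibiotics at 37 °C and 5% CO2. One group of 3 libraries came from ovaries given 2% platelet-rich plasma (PRP) for 2 h, and the other group of 3 libraries, called control here, from ovaries in the same medium without PRP. According to the series text the plasma was human and had been activated by thrombin. Neither thrombin alone nor another plasma is named among the controls. The comparison addresses how a newborn ovary, rich in primordial follicles, responds to PRP, and the series title names the PI3K/Akt pathway. The labels give no strain, sex or genotype. They do not state if the libraries of a group came from different cultures or animals, so the p-values measure the spread between these libraries, and that spread could be technical.

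Library totals ran from 36037111 to 36568367 counts in PRP and from 35568000 to 35825931 counts in control. None of the 8 oocyte, 5 granulosa or 6 stromal marker genes checked had 0 counts over the libraries. The endothelial, macrophage and erythroid lists held no such gene either. This check could hardly have gone against the labelled tissue. Control 3 stood apart from the other libraries. Its 5 erythroid marker genes summed to 1309.5 CPM (counts scaled to library size), against 225.0, 109.1 and 174.1 CPM in PRP 1, 2 and 3 and 108.2 and 143.5 CPM in control 1 and 2. Its 9 interferon-stimulated genes summed to 310.0 CPM, against 162.9, 144.0 and 171.6 CPM in PRP 1, 2 and 3 and 202.4 and 158.2 CPM in control 1 and 2. The 4 surface epithelium marker genes summed to 152.7, 176.4 and 162.0 CPM in PRP 1, 2 and 3, against 133.0, 147.5 and 136.8 CPM in control 1, 2 and 3. Every PRP library was above every control library in that sum, edgeR called 0 of its genes, and its part in the results was not tested. In such bulk tissue, fewer cells of a type and less RNA per cell cannot be told apart.

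The feature that gives these genes their name can be read in their coding sequence. Stretches of 84 coding bases, each spanning 1 finger and the linker after it, are printed for 4 genes from GENCODE M21 transcripts of GRCm38. Capitals mark the codons of the 2 cysteines and 2 histidines that hold the zinc ion. The genes are Zfp936, the member with the smallest p-value for PRP, Zfp949 and Zfp990, both highest in the libraries numbered 3, and Zfp932, the member second in CPM.
Zfp936 (chr7:43189645-43189728, plus strand): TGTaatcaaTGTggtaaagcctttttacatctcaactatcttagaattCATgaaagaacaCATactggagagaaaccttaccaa
Zfp949 (chr9:88569270-88569353, plus strand): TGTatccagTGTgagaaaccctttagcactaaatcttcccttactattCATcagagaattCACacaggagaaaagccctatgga
Zfp990 (chr4:145537325-145537408, plus strand): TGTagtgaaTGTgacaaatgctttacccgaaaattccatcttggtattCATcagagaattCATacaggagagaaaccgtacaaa
Zfp932 (chr5:110008837-110008920, plus strand): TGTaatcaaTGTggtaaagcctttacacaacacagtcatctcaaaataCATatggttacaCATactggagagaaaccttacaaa
Each stretch is the first in its protein with 1 fixed spacing of these residues and a linker. The capitals therefore stand at the same places in all 4 by that choice. The bases between them differ in part. The residues between the second cysteine and the first histidine include those that contact DNA, which is how fingers of the same frame read different sequences.

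Of the 61 genes, 59 had a coding sequence to translate. The finger pattern (Cys, 2 or 4 residues, Cys, 12 residues, His, 3 to 5 residues, His) occurred 628 times in these 59 proteins, with a median of 11 fingers. Among proteins with any finger the number ran from 3, in Zfp978 and Zfp979, to 21, in Zfp974. The pattern was not found in the translations used for Zfp972 and Zfp957. A KRAB A-box pattern (Phe, 4 residues, Trp, 2 residues, Leu in the first 150 residues) was found in 55 proteins and not in those of Zfp972, Zfp956, Zfp974 and Zfp957. These 2 patterns were not used to choose the genes.

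Close copies are common among these genes, and the counts of such genes are uncertain. How the authors' counting treated reads that match several genes is not given in the sources used here. A copy of at least 90% protein identity, over at least 80% of the shorter protein, was found for 24 of the 59 proteins. Zfp995 and Zfp947, at 90.4% identity, still shared only 3.1% and 7.6% of their 75-base transcript stretches with other genes. For 12 genes more than 50% of these stretches also occurred in transcripts of other genes, counted over all other genes combined. Zfp935, among the 12, was matched to a GENCODE gene named Gm49359. It shared 57.3% of its stretches with the GENCODE gene named Zfp935. Zfp965 and Zfp973 had identical coding sequences of 954 bases (0 mismatches). Zfp966, Zfp967 and Zfp968 were likewise identical over 1455 bases (0 mismatches). Zfp991 and Zfp992 differed at 8 of 1719 bases. In the other direction, 32 of the 60 genes with a transcript shared less than 10% of these stretches, Zfp936, Zfp994, Zfp949, Zfp945 and Zfp958 among them. Another gene of the table overlapped the span of 11 members, which matters because the strand setting of the counting is not given either.

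Promoter windows of 300 bases (250 before to 50 after the start) were held for 54 of the 61 genes. Those of 4 genes are printed from RefSeq on GRCm38.p6, with the CCAAT box, GC box and ETS letters found in them in capitals. Zfp936 and Zfp994 are shown because both were lower in every PRP library than in every control library. Zfp949 is shown because it holds none of the 9 elements searched, and Zfp945 because it had the highest CPM of the 61 genes. The start used for Zfp936 lies inside its annotated span.
Zfp936 (chr7:43177340-43177639, plus strand): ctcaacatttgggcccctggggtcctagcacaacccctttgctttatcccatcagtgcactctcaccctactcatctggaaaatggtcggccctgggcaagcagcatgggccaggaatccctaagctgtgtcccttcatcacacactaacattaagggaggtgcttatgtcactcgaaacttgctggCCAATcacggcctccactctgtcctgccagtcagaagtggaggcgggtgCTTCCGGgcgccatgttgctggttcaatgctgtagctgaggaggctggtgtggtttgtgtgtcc
Zfp994 (chr17:22225565-22225864, minus strand): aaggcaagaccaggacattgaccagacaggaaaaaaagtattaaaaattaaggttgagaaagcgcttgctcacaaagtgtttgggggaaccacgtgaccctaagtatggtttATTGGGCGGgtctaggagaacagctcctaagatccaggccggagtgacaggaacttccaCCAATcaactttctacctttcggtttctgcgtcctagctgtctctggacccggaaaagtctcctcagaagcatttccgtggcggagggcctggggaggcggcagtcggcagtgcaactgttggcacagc
Zfp949 (chr9:88547770-88548069, plus strand): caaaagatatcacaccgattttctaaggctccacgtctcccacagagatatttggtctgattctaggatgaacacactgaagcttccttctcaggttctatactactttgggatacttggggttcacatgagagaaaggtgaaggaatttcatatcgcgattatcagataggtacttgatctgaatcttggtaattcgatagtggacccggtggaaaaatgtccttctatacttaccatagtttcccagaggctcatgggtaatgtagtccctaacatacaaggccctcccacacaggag
Zfp945 (chr17:22867085-22867384, minus strand): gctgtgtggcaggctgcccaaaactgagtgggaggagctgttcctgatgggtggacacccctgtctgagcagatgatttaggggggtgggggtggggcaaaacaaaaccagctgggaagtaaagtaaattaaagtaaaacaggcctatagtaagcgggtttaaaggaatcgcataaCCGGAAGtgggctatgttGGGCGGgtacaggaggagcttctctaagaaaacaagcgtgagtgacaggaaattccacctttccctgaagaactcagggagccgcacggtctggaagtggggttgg
In Zfp936 a CCAAT box began 63 bases before the start (position -63) and an ETS site, on the opposite strand, at position -14. In Zfp994 the CCAAT box was found at positions -138 and -79, the first on the opposite strand and overlapping the GC box at -135. Zfp945 held an ETS site at position -74 and a GC box at -56, with no CCAAT box.

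Over the 54 windows, the CCAAT box (CCAAT, either strand) was present in 77.8%, against 48.2% of the windows of 249 other numbered Zfp genes and 41.1% of those of all 27025 genes. The ETS site (CCGGAAG) was present in 25.9% of these windows, against 23.3% in other numbered Zfp genes and 9.9% in all genes. The TATA box (TATAAA) was in 0.0% of the 54 windows, 10% of those of other numbered Zfp genes and 15.7% of those of all genes. Letters bound by early responders to growth factors were searched too. The AP-1 site (TGANTCA), bound by Fos and Jun proteins, was in 0.0% of the 54 windows, 5.2% of those of other numbered Zfp genes and 9.0% of all. The EGR site (GCGTGGGCG) was in 0.0%, 0.4% and 0.7%. It is so rare in all windows that its absence from 54 says little. The cAMP response element (TGACGTCA) was in 1.9% of the 54 windows, which is 1 gene (Zfp953). Of the windows of other numbered Zfp genes 4.0% held it, and 2.0% of all. The NRF1 site was in 0.0% of the 54 windows, 12% of those of other numbered Zfp genes and 5.2% of all. The GC box (GGGCGG) was in 37.0% of the 54 windows, 49.0% of those of other numbered Zfp genes and 38.2% of all. For the YY1 site (AAGATGGC) these shares were 1.9%, 6.8% and 3.2%. The median ratio of observed to expected CpG was 0.41 in these windows, against 0.67 in other numbered Zfp genes and 0.39 in all genes. Paralogous promoters share ancestry and are not independent, so no test was made, and a match says only that these letters are in the window.

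**Figure D1:**
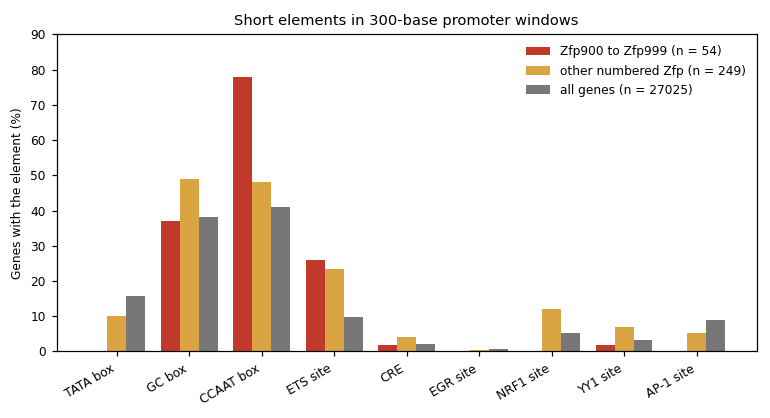
Share of promoter windows (%) that hold each of 9 short elements, for 54 of the Zfp900 to Zfp999 genes, 249 other numbered Zfp genes and 27025 genes in all. The CCAAT box is in 77.8% of the first set and 41.1% of all windows, while the TATA, EGR, NRF1 and AP-1 letters are in 0.0% of the first set.

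The 61 genes were expressed at low to moderate levels in these ovaries. Mean CPM over the 6 libraries was above 10 in 25 genes, between 1 and 10 in 23 and below 1 in 13. Per kilobase of exon, which allows levels of different genes to be compared, the median was 2.84 CPM per kb over 55 tested members, against 4.43 over 297 other numbered Zfp genes and 5.56 over 16324 genes tested. The highest levels per kilobase were 13.0 CPM per kb for Zfp958, 10.8 for Zfp932 and 10.1 for Zfp948. Zfp932 is known, with its paralog Gm15446, to repress endogenous retroviruses in mouse embryonic stem cells. Gm15446 was also its closest protein here, at 92.6% identity.

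The gene with most counts was Zfp945, at 45.7, 52.9 and 45.9 CPM in PRP 1, 2 and 3, against 55.9, 47.6 and 50.9 CPM in control 1, 2 and 3. The groups overlapped, through PRP 2 and control 2. Zfp932 had 34.3, 34.2 and 33.3 CPM in PRP 1, 2 and 3, against 40, 42.5 and 27.7 CPM in control 1, 2 and 3. Its PRP values lay close together, between control 3 and the other control libraries. Zfp958 had 27.7, 37.2 and 29.2 CPM in PRP 1, 2 and 3, against 31.8, 33.4 and 25.6 CPM in control 1, 2 and 3. The groups overlapped, with PRP 2 highest and control 3 lowest. Over the tested members, the highest library held a median of 1.52 times the lowest.

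**Figure D2:**
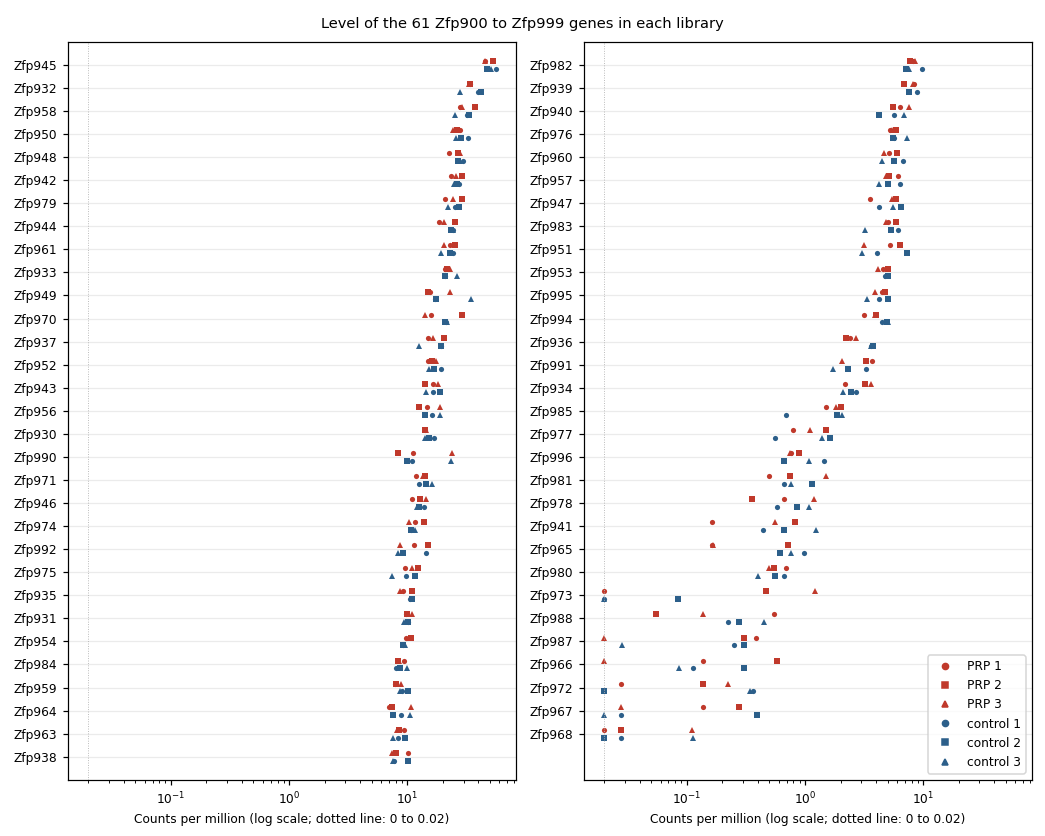
CPM (log scale) of each of the 61 genes in the 3 PRP libraries (red, upper row) and the 3 control libraries (blue, lower row), in order of mean CPM, with shapes for the replicate number and values of 0 drawn on the dotted line. Levels run from about 50 CPM for Zfp945 down to values at 0. The 2 groups overlap in all but 3 of the 56 genes tested (5.36%, against 9.21% of all genes tested).

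None of these genes passed the test between PRP and control. Of the 61, 56 passed the filter on low counts and were tested. The edgeR quasi-likelihood test called 0 of them at an adjusted p under 0.05, where it called 0.0% of the 17475 genes tested. At an unadjusted p under 0.05 it held 1 member, Zfp936 (1.79%), against 3.19% of all genes tested. DESeq2 called 0 members and limma-voom 0, and each called 0 of all genes tested. At an unadjusted p under 0.05 DESeq2 held 1 member (Zfp936), against 551 of all 17475 genes tested. At that threshold limma-voom held 2 members (Zfp936 and Zfp965), against 564 of 17475. The log2 fold change (PRP minus control) was above 0 in 22 members and below 0 in 34, against 50.4% of all genes above 0. The median was -0.03 over the 56 members and 0.00 over all genes tested. Values ran from -1.16 (Zfp965) to 0.31 (Zfp934 and Zfp991). The smallest adjusted p among the members was 0.9998.

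Both groups carry the numbers 1 to 3, and libraries of the same number deviated together from their group means. With the replicate number as a block, edgeR called 21 of all genes tested (0.12%) and again 0 of the 56 members, whose smallest adjusted p was 0.236. At an unadjusted p under 0.05 the blocked test held 3 members (5.36%), namely Zfp949, Zfp936 and Zfp965, against 11.2% of all genes tested.

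The intervals show what differences these libraries leave possible. The 95% interval of the fold change lay within 1.5-fold in either direction for 30 of the 56 members (40 with the block), and within 2-fold for 42 (46 with the block). For the members of low counts the interval was wide, as for Zfp987, at 0.23 on the log2 scale with bounds of -2.21 and 2.66. A difference of 2-fold therefore remains possible for such genes. Low counts were not the only limit. Zfp990, with 304 to 868 counts per library, had bounds of -1.3 and 1.24 without the block.

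**Figure D3:**
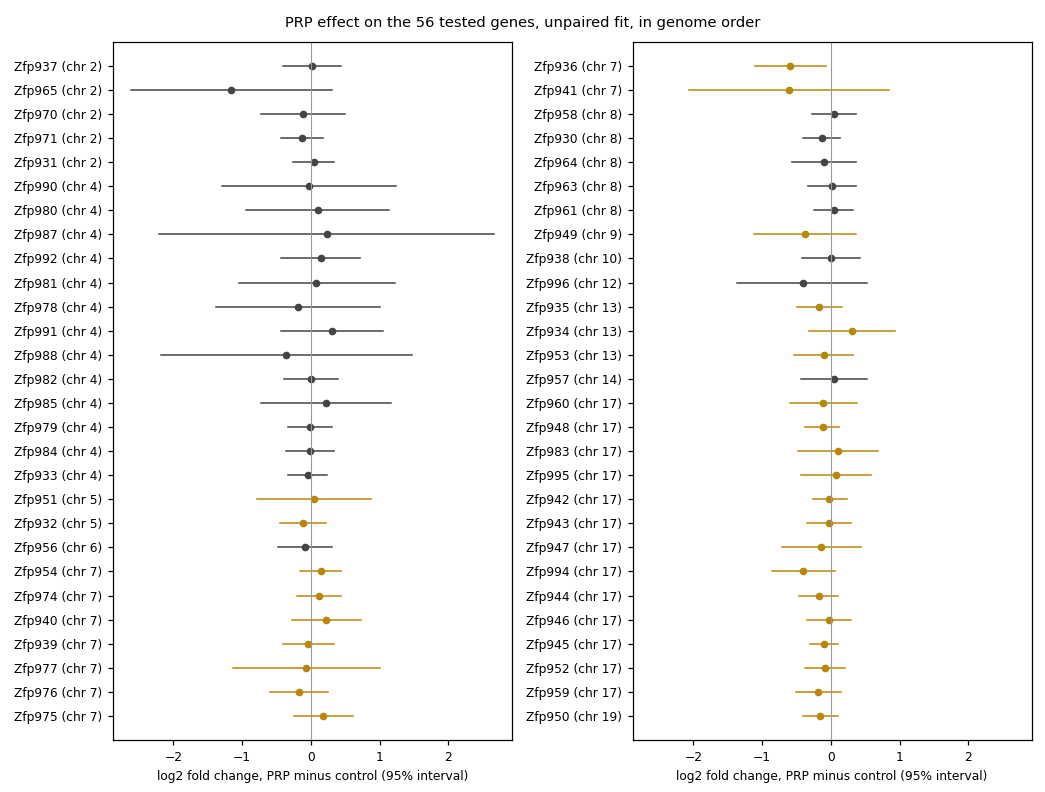
The log2 fold change (PRP minus control) of the 56 tested genes in the unpaired edgeR fit, as points with 95% intervals, in genome order and with odd-numbered chromosomes in gold. The interval of 1 gene, Zfp936, lies wholly below 0, and the widest belong to genes with few counts such as Zfp987 and Zfp988.

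Zfp936, a gene with 11 fingers on chromosome 7 (chr7:43114166-43192109, GRCm38), had 2.39, 2.21 and 2.71 CPM in PRP 1, 2 and 3. In control 1, 2 and 3 it had 3.60, 3.79 and 3.61 CPM. Every PRP library was below every control library. The log2 fold change was -0.59 ± 0.23 (SE, n = 3 per group), with an interval of -1.10 to -0.07 and an adjusted p of 0.9998 in edgeR. Of the variance of its log2 CPM, 91.6% followed the treatment and 2.5% the replicate number. Among the 56 members it was the only one whose treatment share exceeded 80% (1.79%), against 1.52% of all genes tested.

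Zfp994, a 17-finger gene in the chromosome 17 cluster, had 3.16, 3.97 and 3.93 CPM in PRP 1, 2 and 3, against 4.52, 4.99 and 5.08 CPM in control 1, 2 and 3. Its groups did not overlap either, with PRP 1 lowest. This gave a log2 fold change of -0.40 ± 0.21 (SE, n = 3 per group; adjusted p = 0.9998 in edgeR). Zfp954, chosen after its values were seen because it is the remaining gene of this kind, had 9.83, 10.7 and 10.4 CPM in PRP 1, 2 and 3, against 9.20, 9.25 and 9.65 CPM in control 1, 2 and 3. Here every PRP library was above every control library, by a small margin, and the log2 fold change was 0.14 ± 0.13. Groups that did not overlap were found in these 3 of 56 members (5.36%), against 9.21% of all genes tested. Of these, 1 was higher in PRP (4.34% of all genes tested) and 2 were lower (4.87%). The members' share lies below the share over all genes. Among the 32 members that shared less than 10% of their 75-base stretches it was 9.38%. The tested members also had lower counts, with a median CPM of 8.73 against 20.7 over all genes tested. Their median SE was larger, at 0.19 against 0.14. The part of these limits in the share was not tested.

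Zfp965 gave the lowest fold change and is a gene with an identical copy. It had 0.165, 0.718 and 0.166 CPM in PRP 1, 2 and 3, against 0.976, 0.613 and 0.767 CPM in control 1, 2 and 3. PRP 1 and PRP 3 were low and PRP 2 lay within the control range, for a log2 fold change of -1.16 ± 0.65 (adjusted p = 0.9998 in edgeR). The fold change was -2.22 without PRP 2, -0.82 without PRP 1, -0.83 without PRP 3 and, with the block, -2.37 without pair 2. Its copy Zfp973, which did not pass the filter, had 0, 0.469 and 1.22 CPM in PRP 1, 2 and 3, against 0, 0.0836 and 0 CPM in control 1, 2 and 3. PRP 3, low in Zfp965, was the highest library in Zfp973. Summed over both genes, the counts were 6, 43 and 50 in PRP 1, 2 and 3, against 35, 25 and 27 in control 1, 2 and 3. In the sum PRP 1 was low and the other PRP libraries were above all controls, so that the order seen in Zfp965 alone did not hold.

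The other genes with small p-values overlapped between groups. Zfp944 had 18.5, 25.3 and 20.5 CPM in PRP 1, 2 and 3, against 24.4, 23.6 and 24.5 CPM in control 1, 2 and 3, with PRP 2 the highest of the 6 libraries. Zfp950 had 28.2, 26.2 and 24.3 CPM in PRP 1, 2 and 3, against 32.9, 28.3 and 26.1 CPM in control 1, 2 and 3. Within each number the PRP library was the lower one, while the groups overlapped. Zfp959, next to its relative Zfp119b by sequence (88.3% protein identity), had 7.83, 7.98 and 8.86 CPM in PRP 1, 2 and 3, against 9.09, 10.1 and 8.77 CPM in control 1, 2 and 3. Only PRP 3 and control 3 kept its groups from separating. The log2 fold changes were -0.17 ± 0.13 for Zfp944, -0.15 ± 0.11 for Zfp950 and -0.18 ± 0.15 for Zfp959 (SE, n = 3 per group; adjusted p = 0.9998 in edgeR for each).

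Zfp948 had 22.6, 26.9 and 27.7 CPM in PRP 1, 2 and 3, against 29.5, 26.8 and 28 CPM in control 1, 2 and 3, for a log2 fold change of -0.12 ± 0.11. PRP 1 was the low library. Zfp935 had 9.25, 11 and 8.70 CPM in PRP 1, 2 and 3, against 10.5, 11 and 10.9 CPM in control 1, 2 and 3 (-0.17 ± 0.14). PRP 2 was close to the control libraries and the other PRP libraries were below them. Zfp934, its neighbour on chromosome 13, had 2.17, 3.20 and 3.63 CPM in PRP 1, 2 and 3, against 2.70, 2.45 and 2.10 CPM in control 1, 2 and 3 (0.31 ± 0.28). PRP 2 and 3 were above all controls and PRP 1 near the lowest. The fold change was 0.15 without PRP 3, 0.50 without PRP 1 and, with the block, 0.04 without pair 3 and 0.58 without pair 1. Zfp934 has a close copy, Zfp808, at 92.4% protein identity.

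Of the remaining members with high CPM, Zfp942 and Zfp979 had log2 fold changes of -0.02 ± 0.11 and -0.01 ± 0.14. Zfp942 ran from 23.4 to 29.1 CPM in PRP and from 25.0 to 27.5 CPM in control. Zfp979 ran from 20.9 to 28.9 CPM in PRP and from 22.2 to 27.4 CPM in control. In both genes the control range lay inside the PRP range.

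Several members differed far more between replicate numbers than between PRP and control. Zfp990, a 13-finger gene at one end of the chromosome 4 cluster, had 11.1, 8.39 and 24.0 CPM in PRP 1, 2 and 3, against 10.9, 9.95 and 23.6 CPM in control 1, 2 and 3. Both libraries numbered 3 were more than 2 times as high as any other. Of the variance of its log2 CPM, 98.6% followed the replicate number and 0.3% the treatment. Its fold change was -0.03 ± 0.52 on the log2 scale without the block and -0.06 ± 0.12 with it.

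Zfp951, on chromosome 5, had 5.25, 6.35 and 3.16 CPM in PRP 1, 2 and 3, against 4.04, 7.24 and 3.04 CPM in control 1, 2 and 3. Here the libraries numbered 2 were high and those numbered 3 low, and the replicate number took 93.4% of the variance. Zfp990 and Zfp951 were chosen after their values were seen. The share exceeded 80% in 12 of the 56 members (21.4%), against 21.2% of all genes tested. The median share over the members was 58.0% for the replicate number and 6.6% for the treatment, against 55.7% and 11.3% over all genes. Degrees of freedom alone give 40% and 20%.

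Zfp949, an 11-finger gene on chromosome 9 (chr9:88548020-88571086) with none of its 75-base stretches found elsewhere, combined both patterns. It had 15.7, 14.9 and 22.9 CPM in PRP 1, 2 and 3, against 17.2, 17.6 and 34.8 CPM in control 1, 2 and 3. The libraries numbered 3 were the highest of their groups, and within each number the PRP library was the lower one. The log2 fold change was -0.38 ± 0.31 without the block and -0.33 ± 0.11 with it (adjusted p = 0.9998 and 0.236 in edgeR). Control 3 decided the unpaired value, which was 0.04 without that library. Control 3 is also the library with the high erythroid and interferon-stimulated sums, whose part in the value of Zfp949 was not tested.

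**Figure D4:**
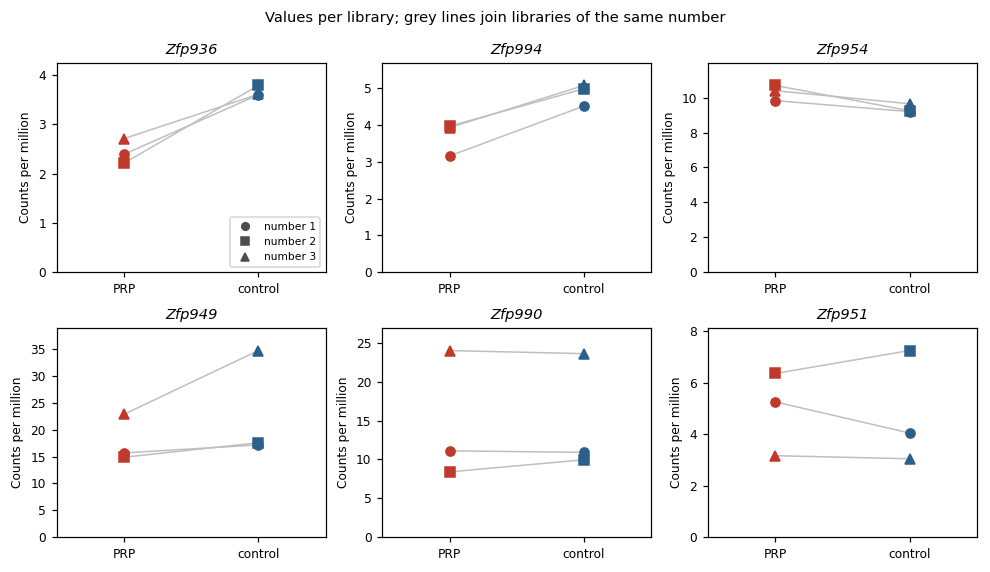
CPM per library, from 0, for 6 genes in PRP (red) and control (blue), with grey lines joining libraries of the same number. Zfp936 and Zfp994 are lower and Zfp954 higher in every PRP library, Zfp949 is highest in control 3 at 34.8 CPM, and Zfp990 and Zfp951 follow the replicate number.

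**Figure D5:**
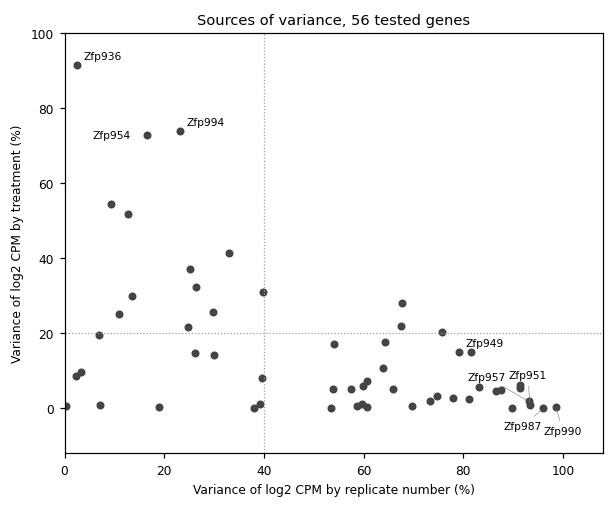
Share of the variance of log2 CPM (%) that follows the treatment, against the share that follows the replicate number, for the 56 tested genes, with dotted lines at the shares given by degrees of freedom (20% and 40%). Zfp936 is alone above 80% on the treatment axis (1.79% of these genes, against 1.52% of all genes tested), and 12 genes lie above 80% on the replicate axis (21.4%, against 21.2%).

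Within same-number pairs, the members' median log2 difference (PRP minus control) was -0.16 in pair 1, with 39 of 56 below 0. It was 0.00 in pair 2, with 28 below 0, and 0.03 in pair 3, with 24 below 0. Over all genes tested the medians were 0.001, 0.001 and 0.005 in pairs 1, 2 and 3. By the members' medians and counts, the lean towards lower values in PRP was seen in pair 1 and not in pairs 2 and 3. The fitted fold changes did not show this, since their median with the block was -0.032 without pair 1 and -0.03 with all pairs. PRP 1 was the lowest of the 6 libraries in 16 members and control 3 in another 16. All 3 pairs were lower in PRP for 7 members (12.5%), against 16.3% of all genes tested, and all 3 higher for 3 members (Zfp991, Zfp954 and Zfp940; 5.36%), against 16.8%.

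Summed over the 61 genes, the level was 591.5, 665.1 and 634.9 CPM in PRP 1, 2 and 3, against 671.1, 655.8 and 642.1 CPM in control 1, 2 and 3. PRP 1 was the lowest library, and PRP 2 lay within the control range. The means were 630.5 ± 37.0 CPM in PRP and 656.3 ± 14.5 CPM in control (SD, n = 3 each), a difference of -25.8 CPM or -3.94%, smaller than the SD of the PRP libraries. Without PRP 1 the difference was -6.04 CPM, and without control 3 it was -32.9 CPM.

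By position, the 61 genes lay on 13 chromosomes. With gaps of at most 1 Mb between neighbours, 41 of them fell into 6 clusters of 2 or more and 20 stood alone. The largest cluster, on chromosome 4 (chr4:145510759-147849126), held 13 members, Zfp990, Zfp979 and Zfp933 among them. Deletion of this region in mice is known to release retrovirus-like elements from repression. Its members summed to 90.2, 97.4 and 104.3 CPM in PRP 1, 2 and 3, against 95.2, 90.7 and 104.8 CPM in control 1, 2 and 3. The libraries numbered 3 were the highest of both groups, and the means were 97.3 ± 7.05 CPM in PRP and 96.9 ± 7.19 CPM in control (SD, n = 3 each). Of its 13 members, 7 had a fold change above 0 and 6 below.

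The chromosome 17 cluster (chr17:21565816-22867309), with Zfp948 at one end and Zfp945 at the other, held 10 members. They summed to 153.8, 181.7 and 170.4 CPM in PRP 1, 2 and 3, against 186.7, 178.0 and 171.8 CPM in control 1, 2 and 3. PRP 1 was low and the other PRP libraries lay in or next to the control range. The means were 168.6 ± 14 CPM in PRP and 178.8 ± 7.48 CPM in control (SD, n = 3 each), with 2 fold changes above 0 and 8 below.

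The chromosome 2 cluster (chr2:175372034-178078425) held 9 members, of which 4 passed the filter, and it contained all 5 untested genes. These 5, Zfp966, Zfp967, Zfp968, Zfp972 and Zfp973, each had a copy of at least 90% protein identity. Together they had 11, 54 and 57 counts in PRP 1, 2 and 3, against 19, 28 and 19 counts in control 1, 2 and 3. PRP 2 and 3 were above all controls and PRP 1 below, at low counts that may have been assigned to any of the copies. The cluster summed to 44.5 ± 9.45 CPM in PRP and 47.0 ± 1.58 CPM in control (SD, n = 3 each).

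The genes through which this family represses its targets were examined next. Trim28, the corepressor, averaged 101.4 CPM per kb, above the level of any member. It had 426.2, 395.7 and 455.7 CPM in PRP 1, 2 and 3, against 411.4, 413.9 and 427.4 CPM in control 1, 2 and 3. The control range lay inside the PRP range, and the log2 fold change was 0.03 ± 0.06 with an interval of -0.12 to 0.17. Setdb1, which methylates histone H3 on lysine 9, had 151.1, 163.6 and 156.4 CPM in PRP 1, 2 and 3, against 157.7, 170.9 and 150.9 CPM in control 1, 2 and 3. The groups overlapped, with a log2 fold change of -0.03 ± 0.07 and an interval of -0.18 to 0.12. For both genes the interval leaves out a difference of 1.5-fold.

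A list of 41 genes for such cofactors (heterochromatin proteins, histone and DNA methyltransferases, the NuRD and HUSH complexes, SUMO enzymes and the well studied KRAB zinc finger genes Zfp57, Zfp809 and Zfp568) was tested in full. The edgeR test called 0 of 41, unpaired or with the block. At an unadjusted p under 0.05 it held 3 genes unpaired (Cbx5, Zfp568 and Atf7ip; 7.32%, against 3.19% of all genes tested) and 8 with the block (19.5%, against 11.2% of all genes tested). Its log2 fold changes were above 0 in 11 and below 0 in 30, with a median of -0.03, against 0.00 over all genes tested. Groups did not overlap for 6 of the 41 (14.6%), against 9.21% of all genes tested.

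Cbx5, which encodes heterochromatin protein HP1 alpha, had 219.6, 236.0 and 233.0 CPM in PRP 1, 2 and 3, against 251.8, 264.4 and 264.5 CPM in control 1, 2 and 3. Every PRP library was below every control library, for a log2 fold change of -0.18 ± 0.06 (SE, n = 3 per group). The adjusted p was 0.9998 in edgeR and 0.145 with the block. DESeq2 with the block alone called it, at an adjusted p of 0.0322.

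Atf7ip, the partner of Setdb1, had 147.2, 133.9 and 144.0 CPM in PRP 1, 2 and 3, against 163.2, 153.1 and 154.2 CPM in control 1, 2 and 3. Its groups did not overlap, at a log2 fold change of -0.15 ± 0.06 and an adjusted p of 0.9998 in edgeR (0.25 with the block). Zfp568, which represses a placental transcript of Igf2, had 32.6, 36.9 and 34.8 CPM in PRP 1, 2 and 3, against 38.9, 41.9 and 45.0 CPM in control 1, 2 and 3. Again all PRP libraries were below all controls (-0.27 ± 0.09, adjusted p = 0.9998 in edgeR and 0.176 with the block). Zfp809, which silences proviruses of murine leukaemia virus, had 10.5, 11.7 and 11 CPM in PRP 1, 2 and 3, against 12.8, 14.4 and 13.1 CPM in control 1, 2 and 3. It too had no overlap (-0.28 ± 0.13, adjusted p = 0.9998 in edgeR and 0.389 with the block).

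The 304 other protein-coding genes with a Zfp number alone, which include Zfp57, Zfp568 and Zfp809, were read from the same fits. Of 298 tested, edgeR called 0 without the block, with 9 (3.02%, against 3.19% of all genes tested) at an unadjusted p under 0.05, and 1 with it, Zfp36. At an unadjusted p under 0.05 the blocked test held 37 (12.4%), against 11.2% of all genes tested. Zfp36 encodes an RNA-binding protein with fingers of another kind and was named after its value was seen. Of the log2 fold changes 105 were above 0 and 193 below, with a median of -0.04. Groups did not overlap for 29 of 298 (9.73%), 24 of them lower and 5 higher in PRP, against 9.21% of all genes tested (4.87% lower and 4.34% higher). The difference between these genes and Zfp900 to Zfp999 was not tested.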

How the data were processed

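The authors deposited raw counts per gene symbol for 27098 genes in 6 libraries. GRCm38 (mm10) is the build in the submitters' processing notes. Aligner, counter, strand setting and annotation were not given in the sources used here. Columns were assigned to samples by title. One column spells PRP 3 with its letters exchanged and was taken as PRP 3, the sample left without a column.

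The main test was the quasi-likelihood F test of edgeR 4.0.16 (R 4.3.3), robust and two-sided, after filterByExpr and TMM scaling. Differences are PRP minus control, with Benjamini-Hochberg adjustment over all 17475 genes tested at 0.05. CPM values use TMM library sizes, and intervals are at 95%. A standard error is the log2 fold change divided by the square root of F. Pairs of libraries differed beyond counting noise (Poisson chi-square per degree of freedom 9.0 to 32.7).

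Same-numbered libraries deviated together from their group means, with correlations of 0.24, 0.398 and 0.334 against -0.0221 or below for all others. The numbers were thus taken as pairs from the data, with no label behind it. DESeq2 1.42.0, limma-voom (limma 3.58.1), other factors and filters, the block and leaving out libraries were alternatives.

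Named members were the 10 with the smallest p-values, the 8 with the highest CPM, every member that passed a threshold and the 4 with the smallest p-values under the block. Named cofactors were Trim28, Setdb1 and the 4 with the smallest p-values. The genes and lists were chosen with earlier results of these data known.

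Coordinates came from RefSeq (61 of 61 matched). Exon lengths, transcripts and translations came from GENCODE M21 of GRCm38 (60 of 61 genes matched, 57 of them by Entrez identifier). By that identifier Zfp935 was matched to a gene named Gm49359, which gave its exon length and translation. Translations of GENCODE coding sequences were used for fingers and for identity (NCBI BLAST 2.17.0, over at least 80% of the shorter protein), in place of the RefSeq proteins first planned.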

Additional observations from a re-analysis of the deposited data

How the results depend on the processing

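In none of the alternatives run was any of the members called. DESeq2 with the block gave no adjusted p for any named member, Zfp945 with the highest CPM included. That fit could therefore not have called the named members. The members' median log2 fold change stayed below 0, from -0.068 to -0.028 when a library or a pair was left out. Their summed difference then ran from -42.9 to -6.04 CPM. Over all genes tested the unpaired fits called 0, edgeR with the replicate block called 21 and DESeq2 with the block 79. With the block, limma-voom and edgeR without robust estimation called 0. In the unpaired fit leaving out a library gave 0, while the blocked fits without pair 1, 2 or 3 gave 8, 1 and 137. Among the other numbered Zfp genes these counts were 1 and 2 with the block and 0 to 1 with a library or pair left out. DESeq2 with the block called 1 cofactor, Cbx5, and gave no adjusted p for Zfp568 and Zfp809. A copy of at least 90% identity was found for 24 members, while 12 had more than 50% of their 75-base stretches in all other genes combined. Zfp935 was counted among the 12 through the GENCODE gene of its own name. Of 440 fold changes of named genes under alternatives, 423 kept their direction, and all 17 that turned came from leaving out libraries. With a library or pair left out, fold changes ran from -0.6 to 0.037 for Zfp949, -0.282 to 0.016 for Zfp932 (0.005 without control 2) and -0.087 to 0.171 for Zfp958, with -0.006 and -0.016 for Zfp958 in the blocked fits without pair 2 or 3 and 0.134 without PRP 1. They ran from -0.102 to 0.085 for Zfp942 (0.057 without PRP 1), -0.143 to 0.1 for Zfp979 (0.093 without PRP 1), -0.023 to 0.079 for Trim28 (-0.003 without pair 3) and -0.065 to 0.027 for Setdb1. The cause was not tested. The block changed no other call. The fits that leave out a pair, the block without robust estimation and the shared stretches were chosen after seeing the data. With 3 libraries per group and counts below 1 CPM in 13 members, depth limits what can be said of those genes.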

Other observations

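A pair of genes with a letter after the number, Zfp955a and Zfp955b, fell outside the rule and were measured at levels like those of its more abundant members. Zfp955a had 21.6, 22.7 and 29.1 CPM in PRP 1, 2 and 3, against 24.0, 30.7 and 33.4 CPM in control 1, 2 and 3. Within each number the PRP library was the lower one, although the groups overlapped, and the log2 fold change was -0.26 ± 0.16 (SE, n = 3 per group; adjusted p = 0.9998 in edgeR). Zfp955b had 20.9, 29.0 and 21.4 CPM in PRP 1, 2 and 3, against 26.8, 22.9 and 24.9 CPM in control 1, 2 and 3. PRP 2 was its highest library, and the log2 fold change was -0.07 ± 0.14.

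The deposited table's pathway annotation names a herpes simplex virus 1 infection pathway for 36 of the 61 genes, out of 427 genes so annotated in the whole table.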
